A study of Rattus norvegicus with 36 samples.

Results

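Surfactant is the film of phospholipid and protein that lowers surface tension in the air spaces of the lung. It is made by alveolar type 2 (AT2) cells, which assemble it in lamellar bodies, release it into the alveolus, and take part of it up again, while alveolar macrophages degrade the rest. Excess surfactant in the alveoli is a known effect of heavy silica exposure, so the transcripts of this system were followed here in rat lungs exposed to DQ-12, a crystalline silica dust. The 10 genes examined were chosen by name: the surfactant proteins Sftpa1, Sftpb, Sftpc, and Sftpd, the lamellar body genes Abca3, Lamp3, and Napsa, the genes Lpcat1 and Slc34a2 for lipid and phosphate handling, and the transcription factor Etv5. They were represented by 14 of the 45598 probes on the array and made up 10 of 23940 genes tested (of 25597 gene names).

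Female Sprague Dawley rats, 13 weeks old at the start, had received a single intratracheal instillation of 10 mg DQ-12 per rat in saline, or saline alone (vehicle). The vehicle rats had thus undergone the instillation as well. The accessory lobe was taken after 1, 30, or 180 days (D1, D30, and D180), with 6 vehicle and 6 DQ-12 rats at each time, and a separate single-color Agilent array was used for every rat, 36 in all, each with 58717 spots other than controls. Values are log2 signals after quantile normalization, which gives every array the same distribution, and a gene was called changed at an adjusted p under 0.05 in limma (Benjamini-Hochberg over all genes tested). A second scale, the log2 signal minus the 75th percentile of its array, is used where the first could not show a change.

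All 14 probes were well above background on all 36 arrays, so the labeled tissue carried every AT2 gene examined. Between 51.4 and 75.5% of the probes of an array were well above background, and replicate arrays of a group had a median correlation of 0.973 to 0.981. Slides and scan dates did not fall evenly over the groups. At D1, 1 of 3 scan dates held both groups, with 1 vehicle and 6 DQ-12 arrays, and the remaining vehicle arrays were scanned on other dates. Both D30 scan dates and 2 of 6 D180 scan dates held both groups.

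Sftpa1, called at every time point after quantile normalization, was read by 2 probes that lie in different parts of the gene (rn4, plus strand). They are shown because both were measured independently, and the second was the brighter one and gave the values reported for the gene.
Sftpa1 probe at chr16:17571596-17571655: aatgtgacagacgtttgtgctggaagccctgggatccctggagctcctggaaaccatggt
Sftpa1 probe at chr16:17573232-17573291: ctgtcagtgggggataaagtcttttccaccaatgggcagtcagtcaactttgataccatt
Sftpd and Napsa were each read by a single probe, on which their results rest. The array design placed the Sftpd probe on the minus strand of an unplaced chromosome 16 sequence and the Napsa probe on the plus strand of chromosome 1.
Sftpd probe at chr16_random:39932-39991: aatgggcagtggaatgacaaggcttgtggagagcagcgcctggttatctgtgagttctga
Napsa probe at chr1:95062553-95062612: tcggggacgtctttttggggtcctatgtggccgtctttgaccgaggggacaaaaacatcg
The 2 Sftpb probes overlap on the genome (chr4:105618356-105618415 and chr4:105618388-105618448, plus strand) and have 28 bases in common, so they are not separate measurements of the transcript.
Sftpb stretch in both probes: cacagcaaccccttgctaacacttctgt
A second probe carrying the Sftpc name lies outside the used one (chr15:50923136-50923195, minus strand) and on the opposite strand, with its letters spread over 280 positions. Its correlation with the used probe over the 36 arrays was 0.74 before scaling and 0.44 on the 75th percentile scale. Quantile normalization cannot show whether the 2 probes follow each other, since it gave the used probe the same value on nearly all arrays.
Sftpc second probe at chr15:50924078-50924357: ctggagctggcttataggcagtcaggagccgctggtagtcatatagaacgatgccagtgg
No member probe had 20 or more bases in common with a probe of another gene, and the Sftpb probes were the only ones to do so with each other. Of the 14 probes, 11 carried an accession that matched RefSeq (GRCr8), and all 10 symbols did. An exon annotation of rn4 was not used here.

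At D1, 3 of the 10 genes were called: Sftpa1 and Lpcat1 rose, and Sftpb fell. Of all genes tested at D1, 16.2% were called (7.58% higher, 8.62% lower). At D30, 3 genes rose (Sftpa1, Sftpd, and Lamp3) and none fell, where 3.98% of all genes were called (2.74% higher, 1.24% lower). At D180, 4 genes rose (Sftpa1, Sftpd, Lamp3, and Napsa) and Etv5 fell, where 16.8% of all genes were called (7.82% higher, 9% lower). The changes were moderate. None reached a 2-fold change together with an adjusted p under 0.05 in limma, a combination met by 3.07% of all genes at D1, 1.05% at D30, and 3.63% at D180, while 6, 4, and 7 of the 10 had an unadjusted p under 0.05 (29, 15.8, and 27.9% of all genes). The median log2 difference of the 10 genes was 0.10 at D1, 0.19 at D30, and 0.31 at D180, beside -0.01, -0.02, and -0.03 over all genes tested. On the 75th percentile scale 4 of the 10 rose at D1, 1 at D30, and 4 at D180, and none fell, beside 16.1, 4.01, and 16.6% of all genes called in either direction (6.56, 2.79, and 7.92% higher). In whole lung RNA, a change in the number of AT2 cells and a change in the RNA per cell cannot be told apart.

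**Figure D1:**
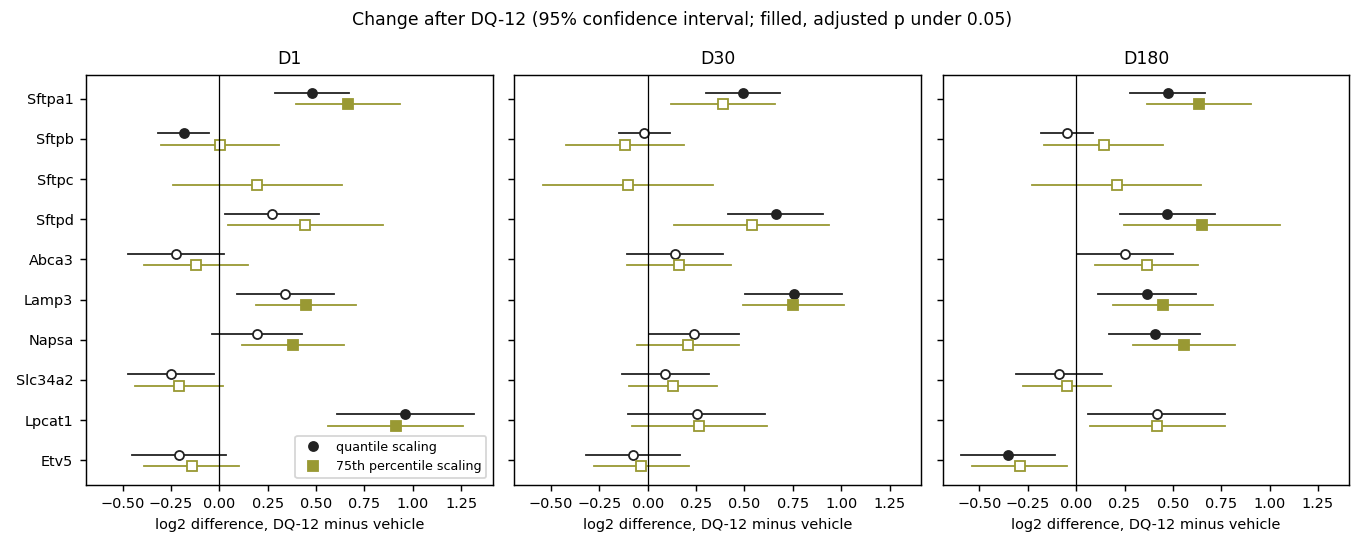
Difference between DQ-12 and vehicle (log2) for each of the 10 genes at D1, D30, and D180, with 95% confidence intervals; circles are quantile-normalized values, squares are values over the 75th percentile of the array, and filled symbols have an adjusted p under 0.05 (limma, 6 rats per group). Among the circles, Sftpa1 stands at 0.47 to 0.49 at all 3 times, and Sftpd and Lamp3 are farthest from 0 at D30 (0.66 and 0.75). Sftpc is drawn on the second scale only.

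Sftpa1 encodes surfactant protein A, a collectin that binds surfactant lipids and the surfaces of microbes and particles. At D1 its lowest, median, and highest log2 signals were 16.26, 16.39, and 16.61 in vehicle rats and 16.67, 16.89, and 17.17 in DQ-12 rats. At D30 they were 16.47, 16.56, and 16.77 against 16.87, 17.10, and 17.29. At both times every exposed rat stood above every vehicle rat. After quantile normalization Sftpa1 alone among the 10 was separated in this way at D1 (5.25% of all genes were higher without overlap), and Sftpa1 and Sftpd were at D30 (1.81%). With 75th percentile scaling Sftpa1, Sftpd, and Lamp3 were separated at D1 (4.86% of all genes) and none of the 10 at D30 (1.78%) or D180 (3.74%). The quantile-normalized D180 values were 16.36, 16.45, and 16.84 in vehicle rats and 16.79, 16.97, and 17.21 in DQ-12 rats, so that 5 of 6 exposed rats lay above all vehicle rats, and none of the 10 genes was higher without overlap at that time on this scale (3.85% of all genes).

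After quantile normalization the size of the Sftpa1 rise hardly differed between times. It was 1.39-fold at D1 (log2 difference 0.48, 95% CI 0.29 to 0.67, adjusted p = 0.000534), 1.41-fold at D30 (0.49, CI 0.30 to 0.68, adjusted p = 0.0013), and 1.39-fold at D180 (0.47, CI 0.28 to 0.67, adjusted p = 0.000425). On this scale Sftpa1 was the only one of the 10 genes to rise at all 3 times, as 1.37% of all genes did, whereas on the 75th percentile scale Lamp3 was. The second probe gave 0.46, 0.39, and 0.66, with an adjusted p over all probes of 0.00459, 0.0513, and 5.68e-05, and its correlation with the first over the 36 arrays was 0.82. On the 75th percentile scale the differences were 0.67, 0.39, and 0.64 at D1, D30, and D180, and the call at D30 was lost (adjusted p = 0.0983).

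Sftpd encodes surfactant protein D, the other collectin of the alveolar lining, which also regulates the pool of surfactant lipid. Its D1 signals were 16.40, 16.60, and 16.82 (lowest, median, and highest) in vehicle rats and 16.60, 16.81, and 17.28 in DQ-12 rats. These overlapped, and the difference of 0.27 (CI 0.03 to 0.52) had an adjusted p of 0.123. At D30 the vehicle values of 16.49, 16.64, and 16.93 lay wholly below the DQ-12 values of 17.11, 17.40, and 17.46. Sftpd thus rose 1.58-fold at D30 (0.66, CI 0.42 to 0.91, adjusted p = 0.000628). The D180 values were 16.24, 16.60, and 16.86 against 16.58, 17.09, and 17.41, with 5 of 6 exposed rats above all vehicle rats and a 1.39-fold rise (0.47, CI 0.23 to 0.72, adjusted p = 0.00488). With 75th percentile scaling the differences were 0.44, 0.54, and 0.65, and the D30 call was lost (adjusted p = 0.137).

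Sftpb encodes surfactant protein B, the small hydrophobic protein without which lamellar bodies and the surface film do not form. Its D1 values were 17.38, 17.59, and 17.63 in vehicle rats and 17.27, 17.39, and 17.44 in DQ-12 rats, and 3 of 6 exposed rats lay below all vehicle rats. The fall of 0.18 on the log2 scale (CI -0.32 to -0.05, 1.14-fold lower) had an adjusted p of 0.0495. It was not present on the 75th percentile scale, where the difference was 0.0029 (adjusted p = 0.993), nor within the scan date that held both groups (-0.0037), and leaving out any rat but vehicle replicate 3 of D1 raised the adjusted p to between 0.0502 and 0.108. At D30 the values were 17.34, 17.56, and 17.58 against 17.44, 17.50, and 17.58, and at D180 17.16, 17.27, and 17.38 against 17.07, 17.19, and 17.36. Those groups overlapped, with differences of -0.02 (CI -0.15 to 0.11) and -0.05 (CI -0.18 to 0.09) and adjusted p of 0.964 and 0.712. Sftpb stood between rank 8 and rank 44 in brightness on the arrays, and its overlapping probes had a correlation of 0.94 before scaling, 0.64 on the 75th percentile scale, and -0.35 after quantile normalization.

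Sftpc encodes surfactant protein C, a hydrophobic protein made only by AT2 cells in the lung. Its probe was the brightest kept probe on 35 of 36 arrays, and quantile normalization set it to the same value, 18.42, on those arrays, so that scale could not show a change. Before scaling, its signal was 197116 to 586094 intensity units, and no spot was saturated. On the 75th percentile scale the D1 values were 9.40, 9.50, and 9.86 in vehicle rats and 9.63, 9.76, and 9.90 in DQ-12 rats, a difference of 0.20 (CI -0.24 to 0.63, adjusted p = 0.591). At D30 they were 8.24, 9.32, and 9.69 against 8.39, 9.39, and 9.56 (-0.10, CI -0.54 to 0.33, adjusted p = 0.936), and at D180 8.50, 9.30, and 9.50 against 8.91, 9.42, and 9.78 (0.21, CI -0.23 to 0.65, adjusted p = 0.604). The groups overlapped at all 3 times.

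The lowest D30 values of Sftpc came from 3 arrays, of 1 vehicle and 2 DQ-12 rats. Their 75th percentiles were 9.70 to 9.85, against 8.05 to 8.39 on the other 9 arrays of that time, and their scaled Sftpc values were 8.24 to 8.54, against 9.27 to 9.69. Over all arrays the log2 signal of Sftpc increased by 0.68 for each unit of the 75th percentile, so its value over the percentile was lower on brighter arrays. Without these 3 arrays the D30 difference was 0.03 (CI -0.32 to 0.38, adjusted p = 1.00), a fit chosen after seeing the data. The second Sftpc probe differed by 0.01, 0.34, and 0.25 after quantile normalization (adjusted p over all probes 0.993, 0.56, and 0.561).

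**Figure D2:**
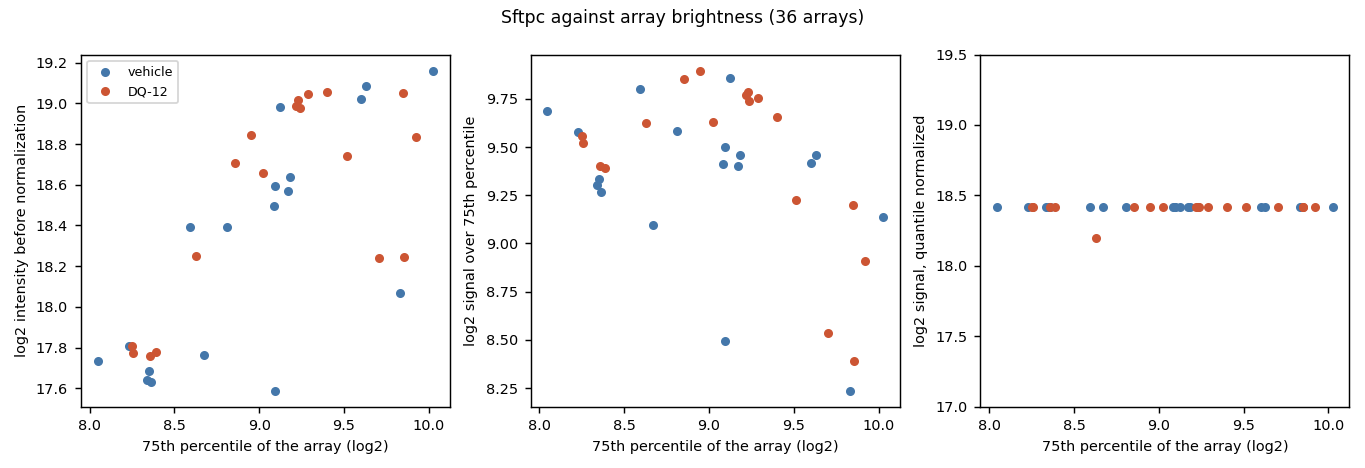
Sftpc signal of each of the 36 arrays (log2) against the 75th percentile of its array (log2), before scaling, over the 75th percentile, and after quantile normalization; vehicle in blue and DQ-12 in orange. Before scaling the signal increases with array brightness by 0.68 per unit, the scaled values fall with it, and after quantile normalization 35 arrays share the value 18.42.

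Abca3 encodes the lipid pump of the lamellar body membrane, which loads phospholipid into the organelle. Its values were 14.29, 14.35, and 14.40 in vehicle rats and 13.49, 14.26, and 14.33 in DQ-12 rats at D1, where the vehicle rats lay within a narrow range and 1 exposed rat was far below the rest. They were 13.78, 14.14, and 14.28 against 13.92, 14.29, and 14.52 at D30, and 13.91, 14.39, and 14.56 against 14.46, 14.57, and 14.69 at D180. The differences of -0.23, 0.14, and 0.25 did not pass the test (adjusted p = 0.222, 0.668, and 0.173). At D180 the 75th percentile scale gave 0.37 with an adjusted p of 0.0526. A second Abca3 probe (chr10:13621839-13621898, against chr10:13664786-13664845 for the one used, both on the plus strand of rn4) gave -0.84, 0.28, and -0.53 (adjusted p over all probes 0.143, 0.865, and 0.428), and its correlation with the first was -0.35, so the 2 probes disagree and the level of the gene is uncertain.

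Lamp3 encodes a membrane glycoprotein of lamellar bodies and is also a marker of mature dendritic cells. At D1 its signals were 13.76, 13.88, and 14.15 in vehicle rats and 14.12, 14.24, and 14.39 in DQ-12 rats, a difference of 0.34 (CI 0.09 to 0.59) with an adjusted p of 0.0559. At D30 they were 13.55, 13.74, and 14.30 against 14.21, 14.52, and 14.78. There 5 of 6 exposed rats lay above all vehicle rats, and Lamp3 rose 1.69-fold (0.75, CI 0.50 to 1.01, adjusted p = 0.000171), the largest D30 difference among the 10 genes. At D180 they were 13.33, 13.51, and 14.19 against 13.87, 13.97, and 14.23, with 1 exposed rat above all vehicle rats and a rise of 0.37 (CI 0.12 to 0.62, adjusted p = 0.0366). The D180 call was lost when 1 of 7 rats was left out (vehicle replicates 1 to 4 and DQ-12 replicates 1, 2, and 6), with differences of 0.31 to 0.48 and an adjusted p of up to 0.105 over the 12 omissions. On the 75th percentile scale Lamp3 passed at all 3 times (0.45, 0.75, and 0.45, adjusted p = 0.0142, 0.000248, and 0.0117).

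Since Lamp3 can come from dendritic cells, their other markers are given with it. Of 6 markers of mature dendritic cells, 2 rose at D1, 3 at D30, and 4 at D180, and none fell. Among all genes tested, 7.58, 2.74, and 7.82% rose at these times. Ccl22, a chemokine of these cells, rose by 1.58, 1.59, and 1.76 on the log2 scale, and Flt3, a growth factor receptor of their precursors, by 0.45, 0.47, and 0.49. Ccr7 (0.33, -0.42, and -0.05) and Fscn1 (0.30, 0.43, and 0.11) did not pass at any time. The log2 of the summed signal of the 6 markers, in which the brightest weigh most, was 12.02 to 12.54 in vehicle rats and 12.58 to 13.39 in DQ-12 rats at D30. At D180 it was 12.29 to 12.65 against 13.22 to 13.63. All 6 were well above background on some arrays of each group, and their part in the Lamp3 values was not tested.

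Napsa encodes napsin A, an aspartic protease that helps cut the precursor of surfactant protein B. Its D1 values were 15.52, 15.81, and 16.01 in vehicle rats and 15.91, 15.99, and 16.08 in DQ-12 rats, and its D30 values were 15.62, 15.78, and 16.27 against 15.89, 16.08, and 16.46. The groups overlapped, with differences of 0.19 (adjusted p = 0.269) and 0.24 (adjusted p = 0.304). At D180 the values were 15.13, 15.30, and 15.47 against 15.38, 15.61, and 16.07, so that 5 of 6 exposed rats lay above all vehicle rats and Napsa rose 1.32-fold (0.41, CI 0.17 to 0.64, adjusted p = 0.0112). With 75th percentile scaling it also passed at D1 (0.38, adjusted p = 0.0419).

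**Figure D3:**
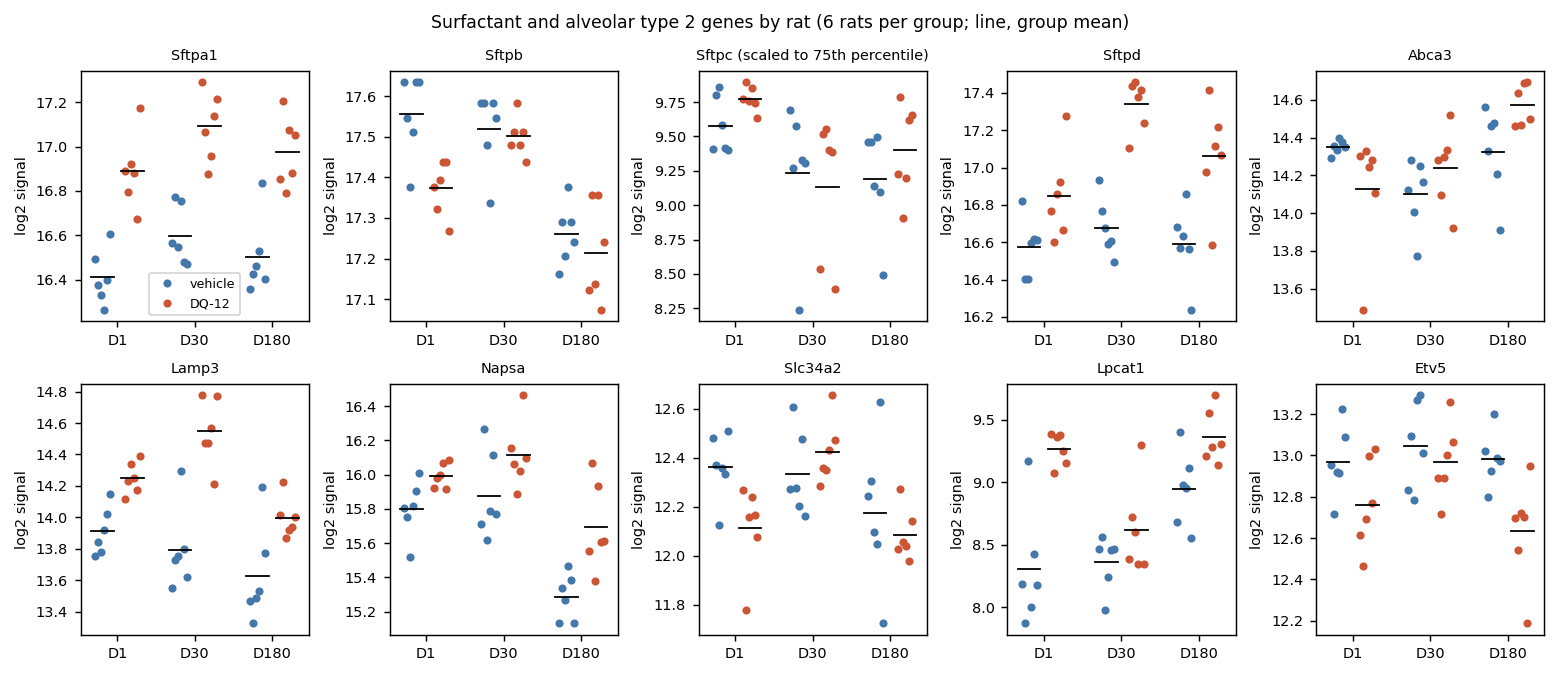
Log2 signal of each rat for the 10 genes at D1, D30, and D180 (6 vehicle rats in blue, 6 DQ-12 rats in orange, line at the mean; quantile-normalized except Sftpc, which is over the 75th percentile of the array). The exposed rats lie wholly above the vehicle rats for Sftpa1 at D1 and D30 and for Sftpd at D30, and overlap with them for every other gene and time.

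Lpcat1 encodes the acyltransferase that makes dipalmitoyl phosphatidylcholine, the main lipid of surfactant. At D1 its values were 7.87, 8.19, and 9.17 in vehicle rats and 9.08, 9.31, and 9.38 in DQ-12 rats, and 4 of 6 exposed rats lay above all vehicle rats. The rise of 1.95-fold (0.96, CI 0.61 to 1.32, adjusted p = 0.000187) was the largest of any of the 10 genes. The vehicle array scanned together with the DQ-12 arrays read 9.17, whereas the other 5 vehicle arrays read 7.87 to 8.42, and within that date the difference was 0.09. With scan date as a fixed block it was 0.09 (adjusted p = 0.937), and with scan date as a random block 0.71 (adjusted p = 0.0206), so the D1 rise of Lpcat1 cannot be told apart from the scan date. For Sftpa1 the same vehicle array read 16.33 and the 6 DQ-12 arrays 16.67 to 17.17, a difference of 0.56 within the date that rests on 1 vehicle array and did not pass with scan date as a fixed block (adjusted p = 0.118).

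At the later times Lpcat1 was 7.98, 8.46, and 8.56 in vehicle rats and 8.34, 8.50, and 9.30 in DQ-12 rats (D30), and 8.56, 8.97, and 9.40 against 9.14, 9.29, and 9.70 (D180). The differences were 0.25 and 0.42, with adjusted p of 0.542 and 0.105. Neither passed.

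**Figure D4:**
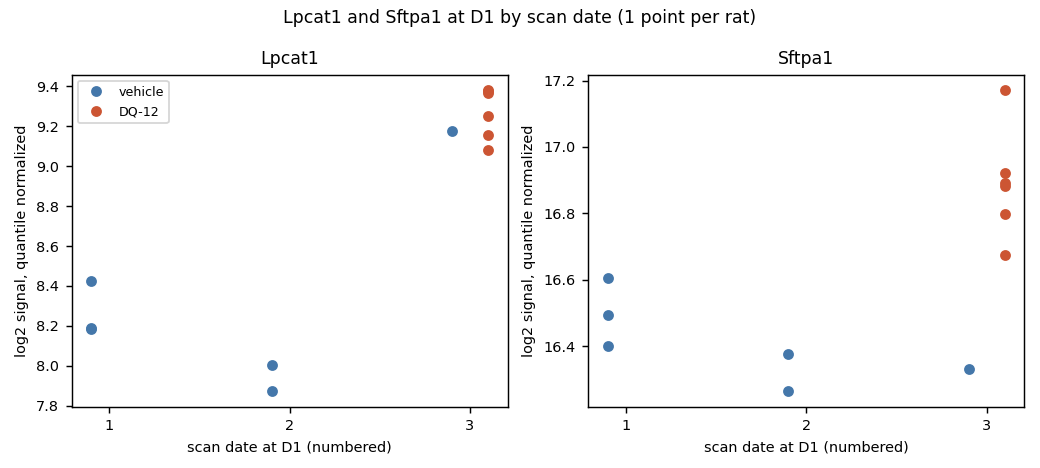
Log2 signals of Lpcat1 and Sftpa1 at D1 by scan date (numbered 1 to 3; vehicle in blue, DQ-12 in orange). On the date that held both groups the vehicle array lies close to the 6 DQ-12 arrays for Lpcat1 (difference 0.09) and below all of them for Sftpa1 (difference 0.56).

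Slc34a2 encodes the apical phosphate transporter of AT2 cells, which removes phosphate released from phospholipid. Its values were 12.12, 12.37, and 12.51 in vehicle rats and 11.78, 12.16, and 12.27 in DQ-12 rats at D1, 12.16, 12.27, and 12.61 against 12.28, 12.40, and 12.66 at D30, and 11.72, 12.17, and 12.63 against 11.98, 12.05, and 12.27 at D180. The differences were -0.25 (CI -0.47 to -0.03), 0.09 (CI -0.13 to 0.31), and -0.09 (CI -0.31 to 0.13). The groups overlapped throughout and none passed (adjusted p = 0.124, 0.8, and 0.67).

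Etv5 encodes an ETS family transcription factor that maintains AT2 cell identity. It was lower by 0.21 at D1 (adjusted p = 0.254) and by 0.08 at D30 (adjusted p = 0.869), with vehicle values of 12.72, 12.94, and 13.22 and DQ-12 values of 12.46, 12.73, and 13.03 at D1, and 12.79, 13.05, and 13.29 against 12.72, 12.95, and 13.26 at D30. At D180 the vehicle values were 12.80, 12.98, and 13.20 and the DQ-12 values 12.19, 12.70, and 12.95. There 5 of 6 exposed rats lay below all vehicle rats, and Etv5 fell by 0.35 on the log2 scale (CI -0.59 to -0.11, adjusted p = 0.0383). The call was lost on the 75th percentile scale (-0.29, adjusted p = 0.102) and when 1 of 6 rats was left out (vehicle replicates 1, 4, 5, and 6 and DQ-12 replicates 2 and 5), with an adjusted p of up to 0.13.

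Several calls depended on how slides and scan dates entered the model. Within the scan dates that held both groups, Sftpa1 differed by 0.57 and 0.43 at D30 and by 0.50 and 0.45 at D180. Sftpd differed by 0.71 and 0.69 at D30 and by 0.27 and 0.65 at D180, and Lamp3 by 0.54 and 0.59 and by 0.54 and 0.61. The D180 differences within dates were 0.38 and 0.27 for Napsa and -0.39 and -0.61 for Etv5. The first D30 date held 4 vehicle arrays and 1 DQ-12 array, and the second 2 and 5. The first D180 date held 3 arrays of each group and the second 1 of each. The second D180 value of each gene is thus a difference between single rats. The directions were the same within dates, on these few arrays. With slide as a fixed block, the D1 and D180 differences rest on the 1 slide at each time that held both groups. It held 1 vehicle and 4 DQ-12 arrays at D1, and 1 array of each group at D180. Sftpa1 then differed by 0.49 at D1 and by 0.32 at D180, and Sftpd by 0.12 at D180. A single vehicle array cannot show whether these calls hold.

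None of the 10 genes differed between time points in its response to DQ-12. Tested as interactions in the same limma model, none passed between D30 and D1, D180 and D30, or D180 and D1, while 2.18, 0.246, and 4.55% of all genes did. At an unadjusted p under 0.05 there were 5, 1, and 2 (16, 11.7, and 19.1% of all genes). Between D1 and D30 these were Abca3, Lamp3, Sftpd, and Slc34a2, whose differences were greater at D30 by 0.37, 0.41, 0.39, and 0.34, and Lpcat1, whose difference was smaller by 0.71. The larger D30 values of Sftpd and Lamp3 were therefore not separated from those at D1 after adjustment (adjusted p of the 5 genes 0.126 to 0.287).

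The genes did not move as a single block across the 36 arrays. The 45 correlations between members had a median of 0.13, and 28 were positive, with a range of -0.56 to 0.79. Sftpc entered them on the second scale and the other members after quantile normalization, so its correlations mix the scales. The median, the number of positive values, and the range include those of Sftpc. All 45 share arrays and are given as descriptions. The highest was that of the 2 collectins Sftpa1 and Sftpd (0.79, and 0.38 after the group means were removed), followed among the called genes by Sftpa1 and Lamp3 (0.76 and 0.60). With group means removed, the median was 0.27 and 37 were positive.

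Genes with profiles like each member over the 36 arrays were named by their correlation. For Sftpa1 they were Brms1l (0.89), Snx20 (0.88), and Rasa4 (0.86). For Sftpd they were Gucy2g (0.82), Mc2r (0.81), and Endod1 (0.81), and for Lamp3 Tmod4 (0.86), Nradd (0.86), and Pck2 (0.85). All are descriptions of arrays that share a normalization. Napsa was like Stxbp2 (0.88), Samm50 (0.85), and Tmed10 (0.85), Abca3 like Atp6v1a (0.80) and LOC100909725 (0.78), and Lpcat1 like Mlx (0.86), Atp6v1d (0.82), and RGD1562690 (0.82). For Etv5 they were Pear1 (0.85), Ccni (0.83), and Kcnj5 (0.82), for Slc34a2 Ift88 (0.76), Rnf130 (0.74), and LOC102550180 (0.73), and for Sftpb Ppp1r12c (0.84). On the 75th percentile scale, Sftpc was like Lyz2 (0.95) and LOC310926 (0.93). Both are read by probes among the brightest on the array, with ranks from 1 to 31, and share with Sftpc the flat increase of signal with array brightness (0.80 and 0.71 per unit of the 75th percentile). This was not particular to them: the increase was 0.78 for Sftpb, 0.80 for Napsa, and 0.83 for Sftpd. The remaining members had 0.87 to 1.26.

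Promoter sequences of RefSeq (GRCr8) covered 7 of the 10 genes, and Sftpc, Sftpd, and Napsa had no entry. The 250 bases before the start were searched on both strands for TCAAG, the core of the site bound by NKX2-1, the main transcription factor of surfactant genes. This core was found in 3 of the 7 (Sftpb, Lamp3, and Lpcat1), against 36.0% of 33469 promoters. The TATA box, written TATAAA in the search, was found in Sftpa1 alone, against 12.9% of promoters, and the letters of these motifs cannot overlap on either strand. The promoters of Sftpa1, which rose at all 3 times after quantile normalization, and of Sftpb, which did not rise, are shown with these motifs in capitals.
Sftpa1 at chr16:17042014-17042263 (GRCr8, plus strand): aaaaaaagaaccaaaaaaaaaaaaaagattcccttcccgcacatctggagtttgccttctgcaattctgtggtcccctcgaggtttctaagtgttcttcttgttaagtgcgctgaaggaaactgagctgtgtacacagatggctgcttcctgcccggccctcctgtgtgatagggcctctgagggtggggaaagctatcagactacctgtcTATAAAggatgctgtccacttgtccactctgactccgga
Sftpb at chr4:105917338-105917587 (GRCr8, plus strand): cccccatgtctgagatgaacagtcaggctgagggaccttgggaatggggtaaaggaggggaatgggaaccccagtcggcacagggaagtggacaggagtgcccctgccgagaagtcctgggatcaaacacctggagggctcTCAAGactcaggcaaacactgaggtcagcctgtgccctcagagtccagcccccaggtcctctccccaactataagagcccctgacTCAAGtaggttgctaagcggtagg
Sftpb holds the NKX2-1 core at 2 places and Sftpa1 at none. A match describes the letters only. Of the other motifs searched, the AP-1 site, TGANTCA, was found in 1 of the 7 (6.34% of all promoters). The C/EBP site, TTGCNNAA, was found in 2 of the 7 (9.22%).

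Of 22 genes that process, move, and release surfactant, 4 rose and 3 fell at D1, 6 rose and none fell at D30, and 7 rose and 1 fell at D180 (median log2 difference 0.12, 0.17, and 0.26). Of all genes tested, 7.58, 2.74, and 7.82% rose and 8.62, 1.24, and 9% fell at these times. Muc1, a membrane mucin of AT2 cells, rose by 0.87, 0.75, and 0.94 on the log2 scale, and P2ry2, the receptor through which extracellular ATP triggers surfactant release, by 0.67, 0.97, and 1.16. For both, every exposed rat was above every vehicle rat at all 3 times. Of all genes, 5.25, 1.81, and 3.85% were higher without overlap at D1, D30, and D180, each time taken alone. P2ry2, for example, was 8.85, 9.29, and 9.47 in vehicle rats and 9.89, 10.21, and 10.95 in DQ-12 rats at D180 (adjusted p = 9.18e-06). In this list and in the lists and markers that follow, D1 differences were not separated from scan date. Only 1 vehicle array of D1 shared a date with the DQ-12 arrays.

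The cathepsins Ctsh and Ctsb, proteases of lysosomes and lamellar bodies, also rose at all 3 times. The Ctsh differences were 0.69, 0.49, and 0.73, and those of Ctsb 0.32, 0.44, and 0.57. Ctsh takes part in cutting the precursors of surfactant proteins B and C. Both cathepsins are also made by macrophages. Atp8a1, a phospholipid flippase, rose at D30 (0.82) and D180 (0.66). Adgrf5, an AT2 and endothelial receptor that restrains the surfactant pool, fell by 0.64 at D1, when every exposed rat was below every vehicle rat, and by 0.74 at D180, when 5 of 6 were (adjusted p = 5.50e-05). At D1 the lipid transporter Abca12 fell by 1.25 and the secreted protein gene Lgi3, which promotes surfactant release, by 0.52.

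Of 23 genes of lipid synthesis and supply, 3 rose and 3 fell at D1, 5 rose at D30, and 7 rose at D180, with none falling at the later times (median 0.02, 0.23, and 0.20). The shares over all genes tested were 7.58, 2.74, and 7.82% higher and 8.62, 1.24, and 9% lower. Mfsd2a, a transporter of lysophosphatidylcholine, rose 2.36-fold at D1, 2.25-fold at D30, and 2.04-fold at D180 (adjusted p = 0.000498, 0.0031, and 0.00258). Its D30 values were 6.73, 7.22, and 7.61 in vehicle rats and 8.14, 8.36, and 8.68 in DQ-12 rats, without overlap. Fabp5, a fatty acid carrier of AT2 cells and macrophages, rose by 1.23 at D30 and by 1.01 at D180. Agpat2, an enzyme of phosphatidic acid synthesis, rose by 0.76 at D1. Srebf1, a transcription factor for fatty acid synthesis, fell by 0.84 at D1, Chpt1, which joins choline to diacylglycerol, by 0.58, and Lpl, a lipase, by 0.51. None of these 3 passed at the later times.

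Of 15 transcription factors and receptors listed for AT2 cells, 2 fell at D1, 1 rose at D30, and 2 rose and 2 fell at D180 (median -0.25, 0.12, and -0.06). Over all genes tested, 16.2, 3.98, and 16.8% were called at these times. Elf3, an ETS factor of epithelia, rose by 0.83 at D30 and by 1.15 at D180, and Cebpa, which supports lipid synthesis in AT2 cells, by 0.35 at D180. Tfcp2l1 and Foxa2, both transcription factors of lung epithelium, fell by 0.76 and 0.57 at D1, and Gprc5a, an epithelial receptor, fell by 0.48 at D180. Hopx also fell at D180 (-0.47), and it is counted again among the alveolar type 1 markers below. Elf3 thus rose at the time when Etv5, also an ETS factor, fell.

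**Figure D5:**
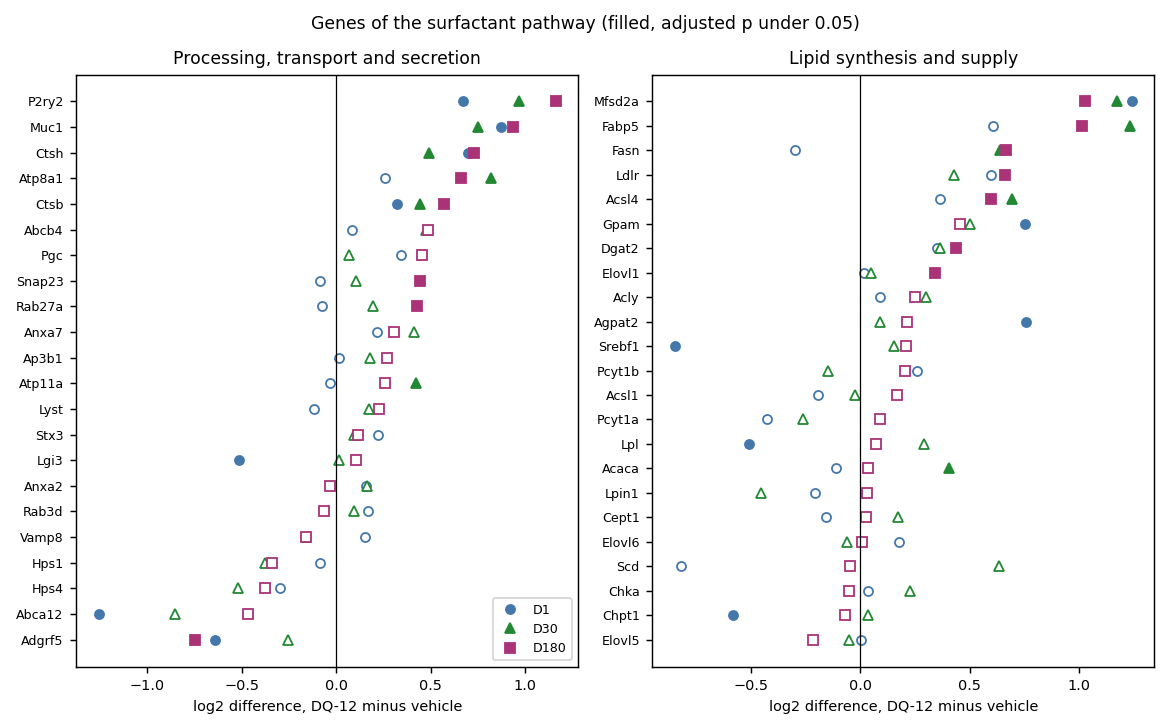
Difference between DQ-12 and vehicle (log2) at D1 (circles), D30 (triangles), and D180 (squares). All tested genes of surfactant processing, transport, and secretion and of lipid synthesis and supply are drawn. Filled symbols have an adjusted p under 0.05 (limma, 6 rats per group). Mfsd2a, Muc1, P2ry2, Ctsh, and Ctsb are filled and above 0 at all 3 times, and Srebf1 is filled and below 0 at D1 only.

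Of 12 genes of surfactant uptake and breakdown in macrophages, 4 fell and none rose at D1, 1 rose at D30, and 4 rose at D180, with no falls at these later times (median -0.10, 0.21, and 0.26). Among all genes, 8.62% fell at D1, and 2.74 and 7.82% rose at D30 and D180. The genes that fell at D1 were not those that rose later. Abca1, the cholesterol exporter, was 10.30, 10.53, and 11.05 in vehicle rats and 8.86, 9.79, and 9.92 in DQ-12 rats at D1, a 1.92-fold fall without overlap (adjusted p = 7.09e-05). The related exporter Abcg1 fell by 0.65 and the lysosomal phospholipase gene Pla2g15 by 0.63. These D1 falls were not separated from scan date. At D180 Csf2ra, a chain of the receptor for GM-CSF, on which surfactant clearance depends, was 7.22, 7.48, and 7.92 in vehicle rats and 8.02, 8.64, and 8.99 in DQ-12 rats, a 2.05-fold rise (adjusted p = 0.00016). Plin2, which coats lipid droplets, rose by 0.68 at D180, and Lpcat2, an acyltransferase of inflammatory cells, by 0.65 at D30.

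Among 16 genes of injured or transitional alveolar epithelium, 4 rose at D1, 1 rose and 2 fell at D30, and 6 rose and 2 fell at D180 (median 0.14, 0.04, and 0.18). The shares over all genes were 7.58, 2.74, and 7.82% higher and 8.62, 1.24, and 9% lower. Lgals3, the galectin of transitional epithelium and of macrophages, rose at all 3 times, by 0.46, 1.02, and 1.21, without overlap between the groups. Lcn2, an antibacterial protein of epithelium and neutrophils, rose by 4.61 at D1 and by 4.69 at D180 with a standard error of 1.27, and Areg, an epidermal growth factor family ligand, by 1.64 at D1. Tnip3 rose by 1.60 at D180, where it was well above background on 2 of 6 vehicle arrays. The keratins Krt19 (-0.60 at D30) and Krt7 (-0.56 at D180) fell. With slide as a fixed block the 5 surfactant and epithelial lists cannot be judged at D1 or D180, where the 1 shared slide held 1 vehicle array.

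Markers of other cells of the lung moved in the same samples. Of 8 markers of alveolar type 1 cells, which line most of the alveolar surface, 5 fell at D1, 2 at D30, and 7 at D180, and none rose. With 75th percentile scaling 2, 1, and 5 fell. After quantile normalization 8.62, 1.24, and 9% of all genes tested fell at these times, and 7.58, 2.74, and 7.82% rose. Cav1 fell by 0.57, 0.40, and 0.80 and Clic5 by 0.36, 0.33, and 0.48. The log2 of the summed signal of the 8 markers (log2 sum) was 18.77 to 19.02 in vehicle rats and 18.24 to 18.53 in DQ-12 rats at D180. All 8 were well above background. Of 8 general epithelial markers, Epcam rose at D1 (0.30) and Krt7 fell at D30 and D180, with log2 sums of 17.36 to 17.72 against 17.08 to 17.28 at D180. All 6 endothelial markers fell at D180, Cldn5 most (-0.90), when their log2 sums were 16.93 to 17.11 against 16.10 to 16.82. None of them passed in limma at D1 (4 at an unadjusted p under 0.05). The part of these cells in the results for the 10 genes was not tested.

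Of 8 macrophage markers, 2 rose and 1 fell at D1, 4 rose at D30, and 4 rose and 1 fell at D180. The shares of all genes were 7.58, 2.74, and 7.82% higher and 8.62, 1.24, and 9% lower. Siglec1, a lectin of macrophages, rose by 0.79, 2.04, and 1.96, and Msr1, a scavenger receptor, by 0.90, 1.37, and 1.52. Mertk was the marker that fell, at D1 (-0.67) and D180 (-0.41). Mrc1 (-0.46, 0.04, and -0.31), Csf1r (0.03, -0.63, and 0.05), and Adgre1 (0.35, 0.15, and 0.13) did not pass at any time. The log2 of the summed signal of the 8 macrophage markers was 12.39 to 12.68 in vehicle rats and 13.15 to 13.61 in DQ-12 rats at D30. At D180 it was 12.89 to 13.42 against 13.99 to 14.66. Marco was well above background on none of the vehicle arrays at D30. Of 6 neutrophil markers, 1 rose at D1, 2 at D30, and 4 at D180, with sums of 12.99 to 13.95 against 15.51 to 16.04 at D180 and Elane not well above background on any array. The part of these cells in the results for Ctsh, Ctsb, Fabp5, Lgals3, and the uptake genes was not tested.

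Of 6 club and secretory cell markers, Muc5b rose and Cyp2f4 (-1.08) and Scgb3a2 (-0.41) fell at D1, when Muc5b was well above background on 2 of 6 vehicle arrays and, with 75th percentile scaling, none rose and 1 fell, and Cyp2f4 fell at D180 (-0.72). Of 6 ciliated cell markers, Tppp3 fell at D180 (-0.62). Of 6 fibroblast markers, Lum rose at D1 (1.05). Calls in either direction covered 16.2, 3.98, and 16.8% of all genes tested at D1, D30, and D180. None of 6 B and T cell markers passed in limma at any time, with 1, 1, and 0 at an unadjusted p under 0.05.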

How the data were processed

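Array files had been produced by the authors with Agilent Feature Extraction 12.0.1.1 (rn4 coordinates, per the file headers) and hold background-corrected intensity per spot. The deposited log2 values are the same log2 intensity after subtracting each array's 75th percentile and each probe's median (median absolute difference 0.00177). The study's methods name quantile normalization, limma, and a batch correction whose variable is not given in the sources used here.

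Here, outlier spots (232 to 596 on an array) were dropped, the log2 intensities of spots of the same probe were averaged, and probes above the 95th percentile of 308 negative controls on at least 6 arrays were kept and quantile normalized. Each gene took its kept probe with the highest mean signal. Missing values (210 in 206 genes) were left out of the fit. A model of 6 group means over 36 arrays was fitted in limma 3.58.1 (R 4.3.3, statmod 1.5.0; figures in Python 3.11.15, matplotlib 3.10.9), with 2-sided tests and Benjamini-Hochberg adjustment within each comparison. The script was tested on simulated data. P-values measure the spread between rats, each with 1 array, and the number of arrays limits the precision.

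The 10 genes and all gene lists were chosen with earlier results of these data known. All members were named. From each list, the genes named were at most the 3 largest rises and falls among those called, and those called at all 3 times. For macrophage and dendritic cell markers, those that passed at no time are named as well. Hopx is named in addition, since it is also an alveolar type 1 marker. For likeness, the 3 most correlated genes were taken, of which 1 is given for Sftpb and 2 each for Abca3 and Sftpc; the others are not reported here. Alternatives changed scaling, background correction (normexp, offset 50), filter, probe summary, model, and slide, scan date, or replicate blocks, and left out each rat. A genome sequence, exon annotation, and protein sequences were not used here.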

Additional observations from a re-analysis of the deposited data

Results flagged for a closer look

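Each group of 6 rats was examined for a value that stood far from the other 5, and 4 of 60 gene and group combinations held one, where chance gives about 1 in 20. Sftpa1 in vehicle replicate 5 of D180 was 16.84, with the others at 16.36 to 16.53, and this rat alone overlapped with the DQ-12 rats. Abca3 in DQ-12 replicate 2 of D1 was 13.49, against 14.11 to 14.33. Vehicle replicate 4 of D30 appeared for 2 genes: its Lamp3 signal was 14.30, against 13.55 to 13.80, and its Sftpc signal over the 75th percentile was 8.24, against 9.27 to 9.69. It was 1 of the 3 arrays of D30 with a 75th percentile of 9.70 to 9.85.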

How the results depend on the processing

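Of the 10 genes, 3, 3, and 5 were called at D1, D30, and D180. With slide as a fixed block 5 were called at D30, and with scan date as a fixed block 3 at D180. At D1 both fits rest on 1 vehicle array, and at D180 the slide fit rests on 1 array of each group. These cannot show whether calls hold. At D30, 75th percentile scaling, the deposited log2 values, and 75th percentile scaling without the 3 bright arrays (chosen after seeing the data) each left 1. At D180, fitting each time point alone left 1. Leaving out 1 rat gave 2 to 3 at D1, 3 to 3 at D30, and 3 to 5 at D180 (3 without vehicle replicate 1 or 4 or DQ-12 replicate 2). No gene was called with a 2-fold change, except that leaving out 1 rat gave 0 to 1 at D1 (Lpcat1 without vehicle replicate 3 or DQ-12 replicate 2, log2 difference 1.14 and 1.00), and none differed between times, except that it gave 0 to 1 for D30 against D1 (without vehicle replicate 3 of D1 or DQ-12 replicate 5 of D30) and 0 to 1 for D180 against D1 (without vehicle replicate 3 of D1). The replicate numbers did not pair the rats: same-numbered rats had correlated deviations above 0.1 in 1, 2, and 3 of 6 cases, and with the replicate block 2, 3, and 4 genes were called, where Sftpb lost its D1 call (adjusted p = 0.0857) and Lamp3 its D180 call (adjusted p = 0.0729). The sign of the log2 difference turned for Sftpb at D1 with 75th percentile scaling (0.0029), deposited values (0.0032), and slide as a fixed block (0.0061), at D30 with slide (0.033) or scan date (0.036) as a fixed block or slide (0.0085) or scan date (0.014) as a random block, and at D180 with 75th percentile scaling (0.142) or deposited values (0.142). It also turned at D180 for Sftpc (0.21 with 75th percentile scaling, 0.21 with deposited values, and 0.105 with the median of its probes), Abca3 (-0.138 with the median of its probes and -0.018 with slide as a fixed block), and Slc34a2 (-0.18 to 0.0015 over omitted rats, turning without vehicle replicate 5), and for Etv5 at D30 with 75th percentile scaling without the 3 bright arrays (0.00071). None of these turned values passed the test. The cause was not tested. The calls of Sftpa1 (D1, D30, D180), Sftpd (D30, D180), Lamp3 (D30), and Napsa (D180) held under every omission of 1 rat. In limma, however, Sftpd and Napsa lost their D180 calls with scan date as a fixed block (adjusted p = 0.113 and 0.0636). Both also lost them with each time point fitted alone (adjusted p = 0.0601 and 0.0673).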
